A study of Rattus norvegicus with 4 samples.

Results

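The regions described here were 3 stretches of the rat genome (build rn6) picked because counts of chromatin loops differed most there between Schwann cells given a virus that overexpresses the antisense RNA of Egr2 and cells given a GFP virus. They were a 6 Mb stretch of chromosome 1 (positions 54000001 to 60000000), a 2 Mb stretch of chromosome 1 (positions 180000001 to 182000000) and the first 2 Mb of chromosome 7 (positions 1 to 2000000). Together they held 1000 of the 277880 bins of 10 kb on the numbered chromosomes and the X, namely 600, 200 and 200 bins. The stretches had been picked from the comparison of the infected groups in these same libraries, so every difference between the groups inside them is given as a description. The counts of pairs and bins that passed a test across the genome are printed for these stretches too, but they rest on the contrast that chose them and are no independent evidence. Gene, repeat and assembly annotation of rn6 was not analysed here, and the bins are therefore named by position alone.

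Hi-C records which pieces of DNA lay close together in the nucleus: chromatin is cut and religated, and each read pair joins 2 pieces of the genome into 1 contact. Contacts within a chromosome (cis) become rarer as the distance grows, and contacts between chromosomes (trans) are normally spread thinly over the genome. Sequence that occurs in several copies, or that is misplaced or missing in an assembly, is known to give bins with unusual coverage and with contacts far from where they are drawn. Egr2, also called Krox20, is the transcription factor that drives myelination by Schwann cells, the glia that wrap peripheral axons.

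Primary rat Schwann cells were infected for 48 h at 2 UFC per cell, with polybrene, and were grown with forskolin and heregulin-β1. The Lenti-GFP group received the control virus carrying GFP, and the Lenti-AS group received the virus that overexpresses the Egr2 antisense RNA. Each group had 2 libraries, made from 2000000 cells with a kit for Hi-C and read as pairs of 150 bases. What else the replicates share was not given in the labels, so the spread between them may be technical, and a lentivirus integrates at many sites, so each library mixed cells with different insertions. Hi-C counts hold no expression values, and the Schwann cell identity and the antisense RNA level could not be checked in them.

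The 4 libraries held 70488877 to 110770015 contacts, of which 12.6% to 13.0% were trans. The matrices that the authors pooled by group and balanced held more contacts than the sum of both libraries of the group. After the balancing was undone, 10704193 contacts of the pooled Lenti-GFP matrix (4.95% of it) and 85961052 of the pooled Lenti-AS matrix (37.2%) lay outside the 2 libraries of the same group. These outside contacts were not used to choose the stretches. They are given beside the libraries for most named bins, pairs and windows, as 1 value per group with no SD. The labels do not say which cells they came from, and they number the libraries of a group 1 and 2 in one field and 2 and 3 in another. Below, 4 values in a row follow the order Lenti-GFP replicate 1, Lenti-GFP replicate 2, Lenti-AS replicate 1 and Lenti-AS replicate 2, and paired outside values give Lenti-GFP first.

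The 3 stretches were unlike ordinary bins, each in its own way. A bin was called low when its cis contacts were under 0.25 of the median bin, and 11.4% of all bins were low. In the 6 Mb stretch 17.0% of bins were low, against 9% in the 6 Mb before it and 33.8% in the 6 Mb after it. In the 2 Mb stretch of chromosome 1, 194 of 200 bins (97.0%) were low, which left 6 kept bins, against 46.5% in the 2 Mb before it and 80.5% in the 2 Mb after it. In the chromosome 7 stretch 140 of 200 bins (70.0%) were low, against 33.5% in the next 2 Mb.

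The trans share also set the stretches apart. Across all kept bins of the genome the median bin had 14% of its contacts in trans, and 0.493% of bins had more than 50%. In the 6 Mb stretch the median was 14.3%, close to the genome, and 4 of 498 kept bins exceeded 50%. All 6 kept bins of the 2 Mb stretch exceeded it, with a median of 83.0%, and so did all 60 kept bins of chromosome 7, with a median of 70.5%. The neighbouring 2 Mb windows had medians of 11.6% and 12.5% on chromosome 1 and 18.8% on chromosome 7, all lower than inside the stretches.

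**Figure D1:**
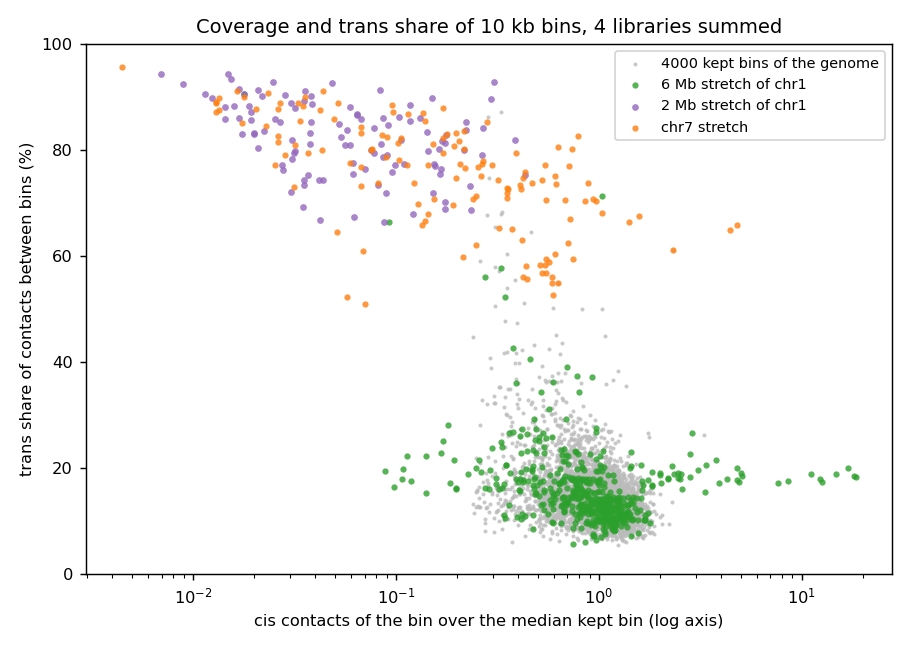
Each point is a 10 kb bin with at least 200 contacts in the 4 libraries together; the x axis gives its cis contacts over those of the median kept bin (log axis) and the y axis its trans share in percent. Bins of the 2 Mb stretch of chromosome 1 and of chromosome 7 lie above most of the 4000 genome bins drawn in grey. The grey points are kept bins only, whereas the 109 and 136 points of these stretches include low bins, so the sets are unlike. The 6 Mb stretch holds bins reaching 18.5 times the median at an ordinary trans share.

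Libraries differed little in the trans share of a stretch. Over the kept bins of the 6 Mb stretch it was 15.7% and 16.0% in the pair of Lenti-GFP libraries against 17.1% and 16.8% in that of Lenti-AS. Over those of the 2 Mb stretch it was 87.9% and 88.7% in Lenti-GFP and 84.6% and 83.5% in Lenti-AS. Most of these bins were kept through their Lenti-AS contacts. Over all bins of that stretch, low ones included, it was 84.3%, 84.2%, 82.3% and 81.6%. Over the kept bins of chromosome 7 it was 69.6%, 68.9%, 68.6% and 68.7%. The Lenti-AS libraries were thus slightly higher in the first and lower in the second, without overlap, while the gaps between stretches were far larger than those between libraries. Over all kept bins of the genome it was 14.7%, 14.8%, 15.2% and 15.1%, also slightly higher in Lenti-AS. The outside contacts gave 16.2% for Lenti-GFP and 15.5% for Lenti-AS in the 6 Mb stretch, 91.6% and 90.4% in the 2 Mb stretch, and 71.8% and 70.2% on chromosome 7.

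The 6 Mb stretch of chromosome 1 was dominated by a few hub bins. A bin was called a hub when its cis contacts exceeded 5 times those of the median kept bin, a threshold set after the values were seen. Only 28 bins of the genome did so, and 11 of them lay here, between positions 54950001 and 56040000. The highest was the bin at 55700001, at 18.5 times the median, followed by 55650001 at 18.0, 55730001 at 16.8, 55710001 at 14.8 and 55220001 at 12.6 times. The trans share of the hubs was between 15.9% and 22.6% in the 4 libraries, so trans contacts were raised along with the cis contacts.

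The hubs contacted each other far above what their distance predicts. The expected count of a pair was the mean count of all pairs of kept bins at that distance in the same library, and observed over expected is the ratio of both. For hub pairs 200 to 500 kb apart this came to 250 and 236 in the pair of Lenti-GFP libraries against 190 and 172 in that of Lenti-AS, over 23 pairs. At 50 to 200 kb, where 7 pairs lay, it was lower, at 60.8, 61.1, 48.3 and 46.8. At 500 to 1000 kb it was 249, 239, 173 and 165 over 11 pairs. The 3 hub pairs 1 to 2 Mb apart, with 9 to 30 contacts a library, had 23.3, 33.3, 27.0 and 15.9. The enrichment was thus highest from 200 to 1000 kb, and the Lenti-AS libraries lay below the Lenti-GFP libraries at all distances but the last, where the groups overlapped.

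The enrichment of hubs with ordinary bins of the stretch followed no single course with distance. Between a hub and a bin that is no hub, observed over expected was 9.81, 10.2, 8.66 and 7.87 at 200 to 500 kb, over 412 pairs. It was lower at 1 to 2 Mb, with 6.24, 6.31, 5.39 and 5.32 over 1580 pairs, and higher at 4 to 6 Mb, with 21.8, 22.2, 20.6 and 19.7 over 335. For pairs without a hub it was 0.978, 0.996, 0.999 and 0.981 at 200 to 500 kb and 1.38, 1.38, 1.42 and 1.34 at 1 to 2 Mb. Over all distances from 50 kb the group difference lay in pairs that hold a hub, and pairs without one gave 1.01 and 1.02 in Lenti-GFP and 1.03 and 1.01 in Lenti-AS.

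**Figure D2:**
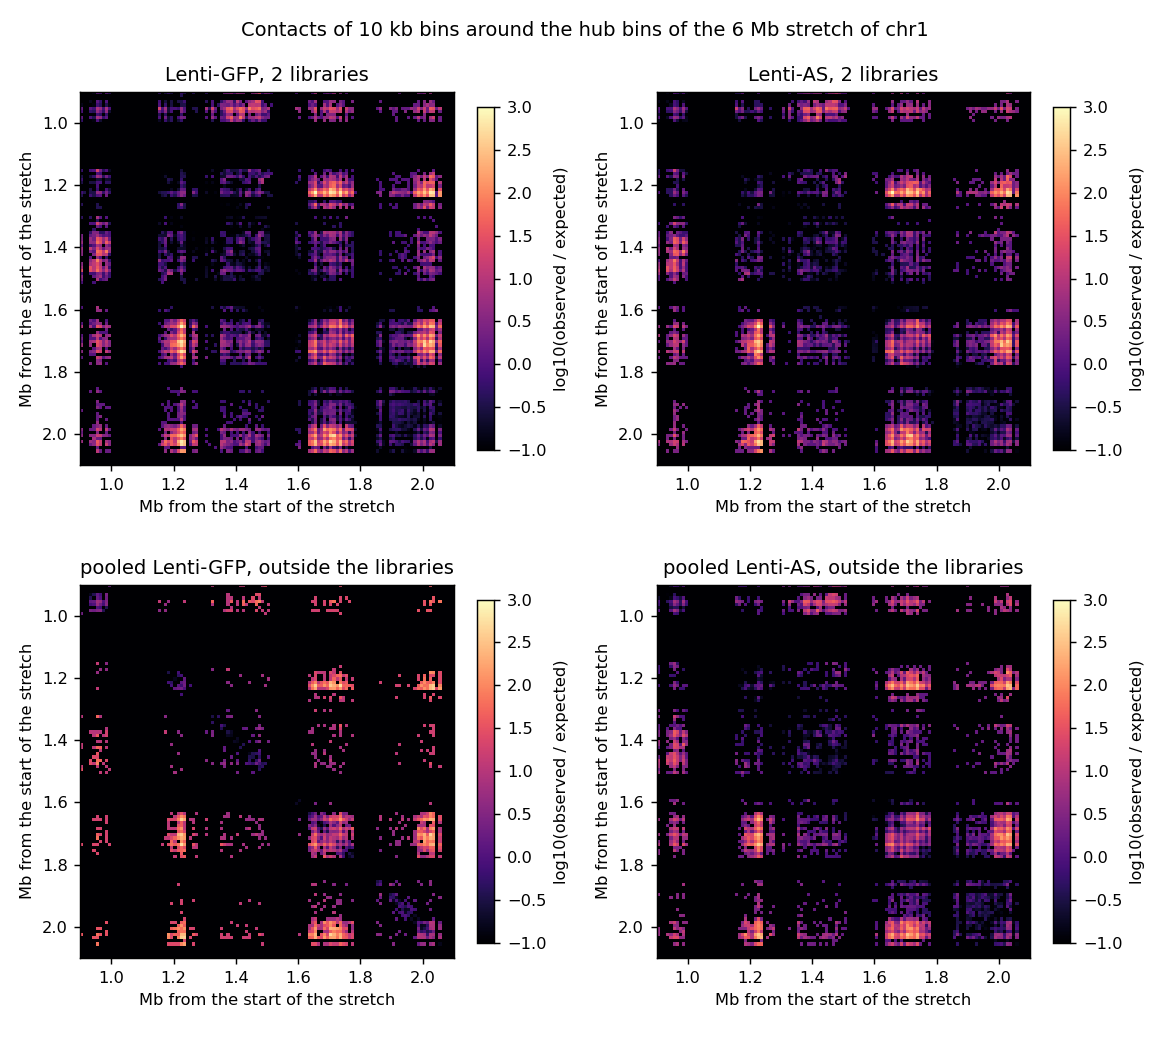
Observed over expected (log10 colour scale) for pairs of 10 kb bins from 0.9 to 2.1 Mb after the start of the 6 Mb stretch, for the summed Lenti-GFP libraries, the summed Lenti-AS libraries and the outside contacts of each group; bins without contacts are black. The blocks of hub bins are brighter with each other than within themselves in all panels, and the outside contacts of Lenti-GFP are sparse because they are few.

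Every hub had fewer cis contacts in both Lenti-AS libraries than in both Lenti-GFP libraries. The hubs were chosen on counts summed over the 4 libraries, to which the deeper Lenti-GFP libraries gave more. The direction of those near the threshold, 54950001 at 5.07 and 55750001 at 5.02 times the median, may thus be partly set by that choice. Summed over the 11 hubs, cis contacts per 1000000 contacts of the library (CPM) were 820 and 814 in Lenti-GFP and 668 and 633 in Lenti-AS, or 817 ± 4.05 against 651 ± 24.1 (mean ± SD, n = 2 libraries a group), a log2 ratio of -0.33. By hub the log2 ratio ran from -0.45 to -0.10, with a median of -0.31. Among all bins with at least 200 cis contacts at 20 kb or more, 30.8% had both Lenti-AS values below both Lenti-GFP values, so this order by itself is common. The hub values hold cis contacts between bins at any distance.

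The trans contacts of the same hubs did not follow. Their sum was 168 and 174 CPM in Lenti-GFP and 171 and 162 in Lenti-AS, or 171 ± 4.64 against 167 ± 6.68, and the groups overlapped. By hub the log2 ratio of trans contacts ran from -0.15 to 0.14, and 3 hubs had both Lenti-AS libraries lower and 2 had both higher. Among all bins with at least 200 trans contacts these orders held for 16.4% and 23.1%. The trans share was consequently higher in both Lenti-AS libraries at 10 of the 11 hubs. How many bins of the genome had this order was not counted. Over all kept bins the share was also higher in Lenti-AS, at 14.7%, 14.8%, 15.2% and 15.1%. The bin at 55750001 showed the widest gap, with trans shares of 17.2% and 17.5% in Lenti-GFP and 22.6% and 20.6% in Lenti-AS.

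The outside contacts of both groups also lay on the low side at the hubs. Their summed cis contacts were 697 CPM for Lenti-GFP and 564 for Lenti-AS, both below the 2 Lenti-GFP libraries, and the Lenti-AS value was also below both Lenti-AS libraries. The outside Lenti-GFP value was below both Lenti-GFP libraries at 9 of the 11 hubs and the outside Lenti-AS value at all 11. Their trans contacts were 156 and 141 CPM, below all 4 libraries. The exceptions were 56030001, with 57.5 CPM beside 56.5 and 54.1 in the Lenti-GFP libraries, and 55730001, with 111 (Lenti-GFP) and 102 (Lenti-AS) outside cis CPM beside 105 and 104 in the pair of Lenti-GFP libraries against 88.8 and 82.0 in that of Lenti-AS. Of all bins with at least 200 cis contacts at 20 kb or more, 22.6% had both outside values below all 4 libraries. The share below the Lenti-GFP libraries alone was not counted. The hubs were chosen on library contacts without the outside ones, so their low side may be partly set by that choice.

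**Figure D3:**
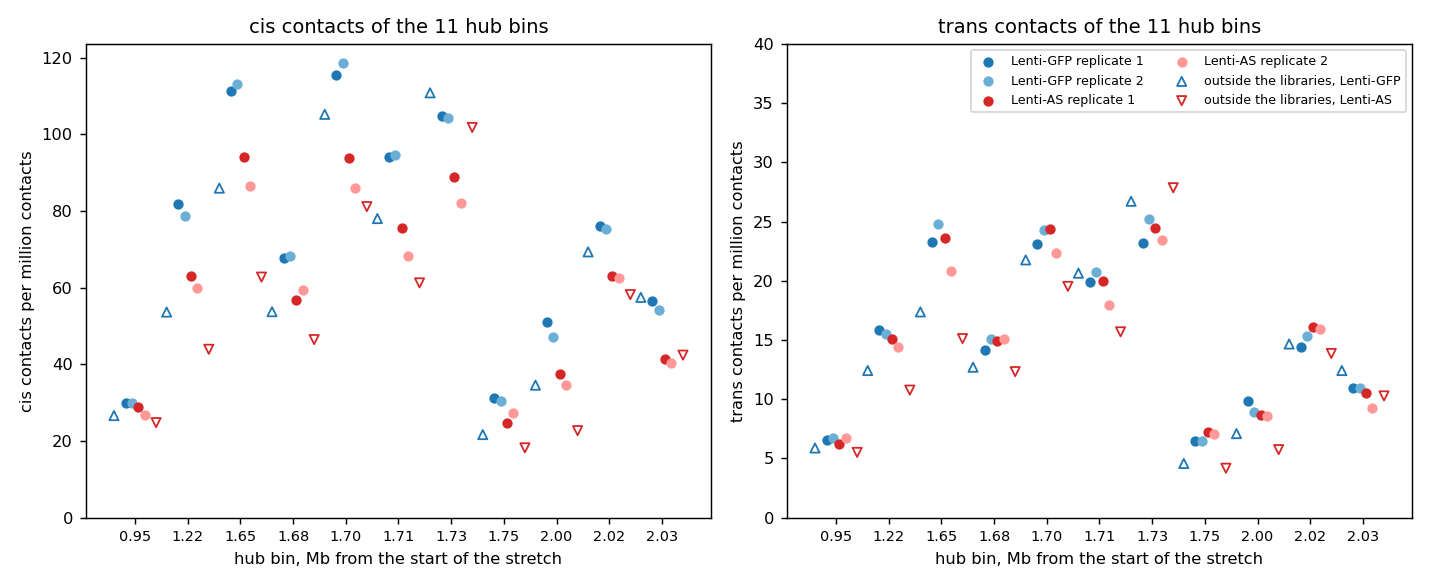
Cis contacts (left) and trans contacts (right), in CPM, for each of the 11 hub bins, placed by distance from the start of the 6 Mb stretch; filled points are the 4 libraries and open triangles the outside contacts of each group. The Lenti-AS libraries lie below the Lenti-GFP libraries at every hub in cis and are mixed with them in trans.

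Pairs of bins were compared across the genome with edgeR, with an offset that holds each library's expected count at that distance. Of 934248 pairs of 10 kb bins 50 kb to 2 Mb apart, 15 passed an adjusted p of 0.05, or 0.00161%. In the stretches 2475 pairs were tested and 10 passed, 6 of them higher in Lenti-AS (0.000963% over all pairs) and 4 lower (0.000642%). Since the stretches were chosen for this difference, nothing is read from the excess. The 6 Mb stretch held 1 higher and 4 lower pairs of 2353, the 2 Mb stretch 4 higher of 5, and chromosome 7 had 1 higher pair of 117. Bins and pairs were kept by counts summed over the 4 libraries. The anchors of the called pairs of the 2 Mb stretch, and the chromosome 7 pair itself, passed mainly through Lenti-AS counts. For example, the bin at 181280001 had 78, 61, 206 and 188 cis contacts. The rise of these pairs was thus partly set by the filter. In the 6 Mb stretch the rise was lost and 5 or 3 falls were called without Lenti-AS replicate 1 or 2, and 8 or 7 falls without Lenti-GFP replicate 1 or 2. In the 2 Mb stretch the rises were also lost without either Lenti-AS library. Such fits leave 1 library in the group, and the rises of the whole genome were lost in them too. DESeq2 called 0 pairs in the 6 Mb stretch and 2 rises in the 2 Mb stretch.

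All 4 pairs that fell joined hub bins. The bins at 55220001 and 55710001, 490 kb apart, had 326 and 392 contacts in the pair of Lenti-GFP libraries against 157 and 128 in that of Lenti-AS. Observed over expected was 447 ± 10.8 in Lenti-GFP and 255 ± 27.1 in Lenti-AS, and the fitted log2 fold change was -0.81. The bins at 55220001 and 55700001 had 494, 555, 241 and 213 contacts, with ratios of 636 ± 15.2 and 398 ± 21.1.

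The other pairs that fell were of the same kind. The bins at 55220001 and 56030001 had 226, 231, 94 and 88 contacts, and the bins at 55700001 and 56030001 had 285, 296, 152 and 109. Their ratios were 560 ± 54.5 against 320 ± 3.61 and 226 ± 18.1 against 146 ± 28.2. The groups did not overlap in these 4 pairs, which is largely set by their being called for this difference. The bin at 55220001 was an anchor of 3 of them.

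These 4 differences shrank when the coverage of the bins was taken into account. Observed over expected was divided by the cis contacts of both bins, each over the median kept bin of its library. The pair 55220001 with 55710001 then had 1.98 ± 0.0866 in Lenti-GFP and 1.84 ± 0.00772 in Lenti-AS, and the pair with 56030001 had 4.22 ± 0.181 and 4.05 ± 0.198. The pair with 55700001 had 2.27 ± 0.043 and 2.29 ± 0.108, and the pair 55700001 with 56030001 had 1.17 ± 0.0838 and 1.25 ± 0.134. After this division the mean ratios lay between 1.17 and 4.22, and the groups overlapped in 3 of the 4 pairs. The contacts of hubs with each other are themselves part of that coverage, so the division removes part of any difference in them. In Lenti-GFP replicate 1 the 494 contacts of 55220001 with 55700001 were among the 7760 cis contacts of the bin at 55220001.

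The outside contacts of both groups lay nearer the Lenti-AS libraries than the Lenti-GFP libraries at these pairs. For 55220001 with 55710001 they were 19 contacts for Lenti-GFP, an observed over expected of 220 (95% counting interval 133 to 344), and 110 contacts for Lenti-AS, a ratio of 159 (131 to 192). For 55220001 with 55700001 the ratios were 380 (262 to 534) and 286 (248 to 328), for 55220001 with 56030001 they were 381 (222 to 610) and 239 (191 to 296), and for 55700001 with 56030001 they were 162 (102 to 246) and 158 (136 to 183). Both Lenti-GFP libraries lay above the interval of the outside Lenti-GFP contacts for 55220001 with 55710001 and with 55700001, and both lay inside it for the other 2 pairs. All such intervals cover counting error only.

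The pair that rose in the 6 Mb stretch joined the bins at 55210001 and 55740001, which are neighbours of hubs and no hubs themselves. It had 13 and 11 contacts in Lenti-GFP and 51 and 31 in Lenti-AS, ratios of 16.8 ± 3.84 and 81.2 ± 25.2, and a fitted log2 fold change of 2.28. Divided by the coverage of its bins the ratio was still 3.09 ± 0.879 against 15.1 ± 1.96. The outside contacts were 2 for Lenti-GFP and 11 for Lenti-AS, with ratios of 25.7 (3.11 to 92.7) and 17.7 (8.84 to 31.7), so those of Lenti-AS lay nearer the Lenti-GFP libraries than their own.

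With the cis contacts of both bins in the offset, 0.000749% of all pairs of the genome passed, 0.000642% higher and 0.000107% lower in Lenti-AS. In the stretches 5 of 2475 pairs were called, all higher in Lenti-AS and all in the 6 Mb stretch, and 1 of them, 55210001 with 55740001, was called by both fits. The bins at 55190001 and 55720001, also 530 kb apart, had 8, 13, 30 and 18 contacts. The other 3 joined hubs or a bin beside one. The bins at 55220001 and 55650001 had 916, 995, 641 and 574 contacts, fewer in Lenti-AS, but a ratio per coverage of 3.78 ± 0.113 in Lenti-GFP and 5.33 ± 0.291 in Lenti-AS. For such a pair the direction was set by whether the coverage was part of the scaling.

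At 100 kb, 375849 pairs were tested over the genome and 0.237% passed, 0.0655% higher and 0.172% lower in Lenti-AS. In the stretches 19 of 710 passed, 10 higher and 9 lower, and of these the 6 Mb stretch held 2 higher and all 9 lower. With the cis contacts in the offset 0.037% passed over the genome, 0.0298% higher and 0.00718% lower, and the 6 Mb stretch then held 3 higher and 0 lower. With DESeq2 it held 0 higher and 4 lower, and the rises were also 0 without Lenti-AS replicate 1 and without Lenti-GFP replicate 1. Without Lenti-AS replicate 2 there were 5 falls, and without Lenti-GFP replicate 2 there were 6. Its pair with the largest rise, 58500001 to 58600000 with 59200001 to 59300000, had 4 and 6 contacts in Lenti-GFP and 22 and 9 in Lenti-AS. Its pair with the largest fall, 55400001 to 55500000 with 55700001 to 55800000, had 211, 198, 98 and 86 contacts, ratios of 1.41 ± 0.211 and 0.905 ± 0.0486. The outside contacts of the rising pair had ratios of 0.372 (Lenti-GFP) and 0.326 (Lenti-AS), and those of the falling pair 0.910 and 0.845.

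Summed over all its pairs from 50 kb, the 6 Mb stretch differed little between groups, with a log2 ratio of observed over expected of -0.09. By single bins, 5.98% of 257633 bins passed the test on cis contacts at 20 kb or more, 2.46% higher and 3.51% lower in Lenti-AS, and 0.112% of 257576 passed the test on trans contacts. In the 6 Mb stretch 12 of 523 bins were higher and 31 lower in cis, and 6 of the 31 were hubs. These counts were 0 and 8 with DESeq2, which called 27 higher and 95 lower of the 257633 bins of the genome. They also fell without Lenti-GFP replicate 1 or either Lenti-AS library, in fits that leave 1 library in a group. Over the genome the counts fell in those fits too. With trans contacts 0 of its 523 bins passed with edgeR and 0 with DESeq2. Some passed without Lenti-GFP replicate 2, a fit that leaves 1 library in that group. An unadjusted edgeR p under 0.05 was found for 40 of the 523. It was found for 23260 of the 257576 bins of the genome, a larger share. Over the genome 0.0691% passed higher and 0.0427% lower in Lenti-AS by trans contacts.

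Partners outside a stretch were sought in windows of 100 kb on other chromosomes, or more than 5 Mb away on the same one. For the 6 Mb stretch the leading window on its own chromosome was that at 86800001 to 86900000, which held 29.5 and 30.7 contacts with the stretch, in CPM, in Lenti-GFP and 28.0 and 26.2 in Lenti-AS, or 30.1 ± 0.857 against 27.1 ± 1.29. The outside contacts gave 27.9 and 24.3. Its leading trans partner was the window 2100001 to 2200000 of chromosome 7, just past the chromosome 7 stretch. This window had 7.39, 7.78, 6.84 and 6.72 CPM, and 8.41 and 6.39 outside. The 3 leading trans windows held 2.20% of the trans contacts of the stretch, so most of them were spread widely.

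Of the 3 stretches, the 2 Mb stretch of chromosome 1 had the largest log2 ratio between groups, 0.70 by observed over expected summed from 50 kb. In the pooled balanced matrices that log2 ratio was -0.19. The stretch also held the fewest contacts. All its bins together held 315 and 331 CPM in the pair of Lenti-GFP libraries against 392 and 363 in that of Lenti-AS. Per bin that was 0.238, 0.251, 0.298 and 0.276 of the genome's mean. The Lenti-AS libraries were higher without overlap.

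The outside contacts of both groups stood apart from all 4 libraries in this stretch. They held 1186 CPM for Lenti-GFP and 1048 for Lenti-AS, or 0.889 and 0.788 of the genome's mean per bin. In the windows beside it the outside contacts stayed near the libraries, with 0.660 and 0.778 of the mean before the stretch, where the libraries had 0.774 to 0.801. After it they had 0.300 and 0.338, where the libraries had 0.322 to 0.351. In the 2 Mb stretch the outside contacts of Lenti-GFP thus resembled those of Lenti-AS and no library of their own group, and their order between groups was opposite to that of the libraries.

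The difference was carried by single bins that stand out from an almost empty background. The bin at 180640001 had the most trans contacts over the 4 libraries together. It had 10.4 and 12.5 CPM in Lenti-GFP and 42.1 and 34.8 in Lenti-AS, or 11.4 ± 1.49 against 38.4 ± 5.20. In the Lenti-GFP libraries the bin at 181070001 had more, 14.9 and 15.6. The outside trans contacts of the bin at 180640001 were 299 CPM in pooled Lenti-GFP and 220 in pooled Lenti-AS. This bin held 3.52% and 4.03% of all contacts of the stretch in the Lenti-GFP libraries, 11.6% and 10.5% in those of Lenti-AS, and 26.6% and 22.4% of the outside contacts. Without it the stretch had 304, 318, 346 and 325 CPM in the libraries and 871 and 813 outside them, so the outside contacts were also high elsewhere.

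Other bins changed in cis and trans alike. The bin at 180850001 had 1.06, 1.07, 4.58 and 4.41 cis CPM and 5.01, 5.88, 11.9 and 9.36 trans contacts. The bin at 181280001 had 0.821, 0.551, 2.75 and 2.67 in cis and 4.11, 3.89, 8.78 and 7.56 in trans. In both bins each Lenti-AS value lay above each Lenti-GFP value, in cis by log2 ratios of 2.07 and 1.98 and in trans by 0.96 and 1.03.

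The outside contacts followed in trans. For 180850001 they were 48.0 CPM for Lenti-GFP and 37.5 for Lenti-AS, and for 181280001 they were 61.5 and 49.9, above all libraries. In cis they were 7.29 and 6.60 for the first bin and 3.46 and 3.69 for the second. Both groups' outside contacts therefore lay on the Lenti-AS side of the libraries or beyond it.

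Some bins of the same stretch went the other way in the libraries. The bin at 180710001 had 7.31 and 8.21 trans CPM in Lenti-GFP and 5.27 and 4.48 in Lenti-AS, and 1.66, 1.44, 0.855 and 0.908 in cis. The bin at 180730001 had 5.67, 5.52, 3.96 and 3.72 in trans. Their outside trans contacts were 12.8 and 12.3 for the first and 6.73 and 5.50 for the second. The bin at 181070001 did not separate the groups by much, with 14.9, 15.6, 13.7 and 13.7, but had 42.3 and 40.1 outside.

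Counted over the stretch, 14 of 146 bins passed the test on trans contacts, 7 higher and 7 lower, and 20 of 95 passed that on cis contacts, 16 higher and 4 lower. Over the genome 0.0691% passed higher and 0.0427% lower by trans contacts, and 2.46% and 3.51% by cis contacts. With DESeq2 it was 6 and 4 by trans contacts, where 31 and 25 of 257576 passed over the genome. By cis contacts it was 8 and 1, where 27 and 95 of 257633 passed. Most lower calls by trans contacts were lost without either Lenti-AS library. Calls by cis contacts fell without Lenti-GFP replicate 1 or either Lenti-AS library. Such fits leave 1 library in a group, and the calls of the genome fell in them too. All 9 bins called in both changed in the same direction in both. Among its 98 bins with at least 200 trans contacts, 49 (50%) had the outside contacts of both groups above all 4 libraries, against 18.9% of all such bins of the genome. Of its 26 bins with at least 200 cis contacts at 20 kb or more, 18 (69.2%) did so in cis, against 29% of the genome's. In 14 of the 26 (53.8%) both Lenti-AS libraries were above both Lenti-GFP libraries in cis, against 20.1%. Few bins of the stretch reached 200 cis contacts over the 4 libraries, so bins high in Lenti-AS passed more readily. This share may thus be partly set by that filter. In trans both Lenti-AS libraries were above in 21 of the 98 (21.4%), against 23.1%, and below in 29 (29.6%), against 16.4%. By trans contacts the outside values of both groups were above all 4 libraries in 26 of 128 bins of chromosome 7 (20.3%) and in 74 of 421 of the 6 Mb stretch (17.6%). They were below all 4 libraries in 58 of the 128 bins of chromosome 7 (45.3%), against 17.8% of the genome's bins.

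**Figure D4:**
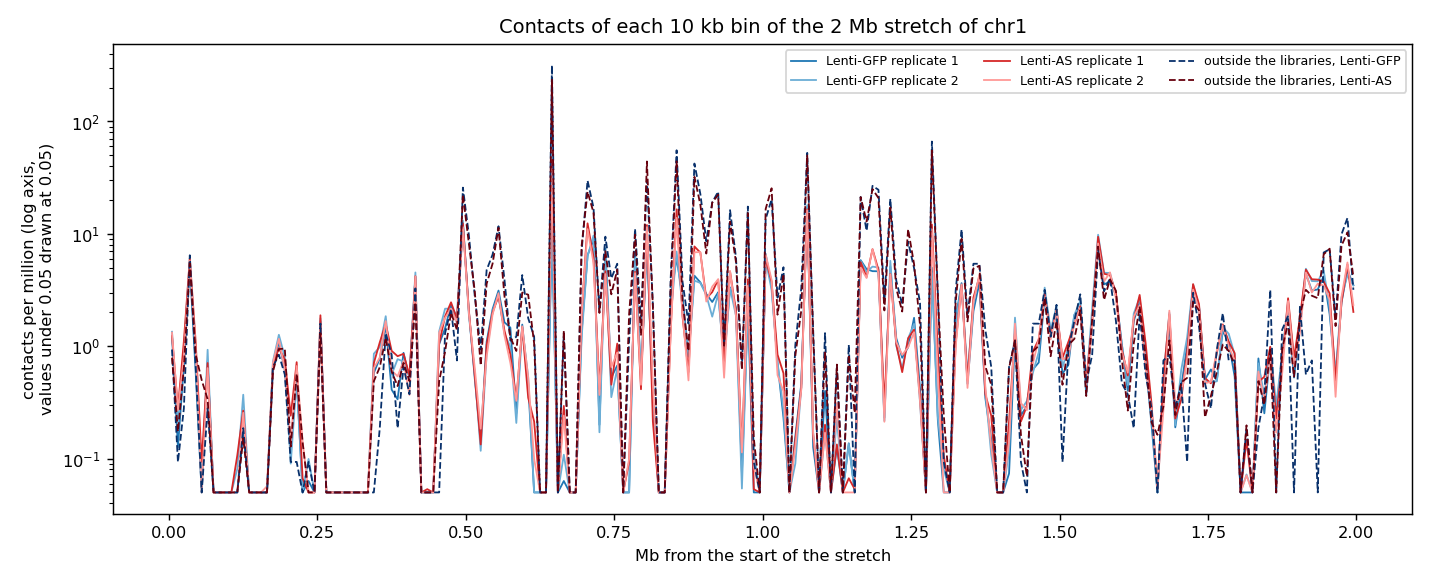
Contacts CPM (log axis) of each 10 kb bin along the 2 Mb stretch of chromosome 1, by distance from its start, in the 4 libraries (solid lines) and in the outside contacts of each group (dashed lines). Of the 54 bins with a mean of at least 2 CPM in the libraries, 34 have the outside contacts of both groups above all 4 libraries and 11 have both below.

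The 4 called pairs of the 2 Mb stretch joined bins with few contacts of their own. The bins at 180850001 and 181280001 had 9 and 5 contacts in Lenti-GFP and 57 and 42 in Lenti-AS, ratios of 7.62 ± 3.76 and 75.5 ± 13.5 and a fitted log2 fold change of 3.32. The bins at 180800001 and 181280001 had 3, 1, 15 and 16 contacts. The bins at 180800001 and 180850001 had 13, 7, 49 and 46.

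The bins at 180640001 and 180800001 had 13, 11, 38 and 45 contacts, ratios of 4.42 ± 0.966 and 21.9 ± 3.42. In all 4 pairs the groups did not overlap, which is again largely set by the calls. The bin at 180800001 was an anchor of 3 of these pairs. Of the 28 pairs of 100 kb tested here, 8 were called by edgeR, all of them higher. With the cis contacts in the offset the direction turned, with 0 higher and 3 lower. DESeq2 called 1, higher, and 5 were called without either Lenti-AS library or without Lenti-GFP replicate 2. The one with the largest change, 180600001 to 180700000 with 180700001 to 180800000, had 3, 0, 21 and 18 contacts and an observed over expected of 0.0492 ± 0.00347 in Lenti-AS, far under the genome's mean. Its outside contacts had ratios of 0.156 (Lenti-GFP) and 0.123 (Lenti-AS), both above all 4 libraries.

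Divided by the coverage of their bins, these pairs were no higher in Lenti-AS. The pair 180850001 with 181280001 had 337 ± 81.3 in Lenti-GFP and 196 ± 24.6 in Lenti-AS, and the pair 180800001 with 181280001 had 144 ± 69.5 and 122 ± 16.2. The pair 180800001 with 180850001 had 51.6 ± 22.5 and 23.2 ± 1.15, and the pair 180640001 with 180800001 had 260 ± 57.1 and 85.1 ± 20.8. Each stayed high in both groups, with the lower mean in Lenti-AS. A called pair is itself part of that coverage, and in Lenti-AS replicate 1 the 57 contacts of 180850001 with 181280001 were among the 206 cis contacts of the bin at 181280001.

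The outside contacts of these pairs took no common side. For 180640001 with 180800001 they were 8 for Lenti-GFP, a ratio of 28.2 (95% counting interval 12.2 to 55.6), and 139 for Lenti-AS, a ratio of 58.4 (49.1 to 69.0), both above all 4 libraries. For 180850001 with 181280001 the ratios were 20.0 (2.43 to 72.4) and 41.8 (28.9 to 58.4), between the groups' libraries. For 180800001 with 181280001 the ratios were 11.5 (0.292 to 64.2) and 15.6 (7.77 to 27.8), also between them. For 180800001 with 180850001 they were 2.50 (0.303 to 9.02) and 1.76 (0.908 to 3.07), and the Lenti-AS libraries at 8.63 and 8.54 lay above the interval of the outside Lenti-AS contacts.

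The trans partners of the 2 Mb stretch were led by the window 33500001 to 33600000 of chromosome 13. It held 5.09 and 4.34 CPM with the stretch in Lenti-GFP and 8.03 and 8.54 in Lenti-AS, or 4.71 ± 0.526 against 8.29 ± 0.358, and 29.6 and 22.8 in the outside contacts. The bin at 180640001 gave 1.04% to 3.83% of these contacts in the libraries, so other bins of the stretch carried them. The window 33700001 to 33800000 of the same chromosome had 1.46, 1.48, 2.01 and 2.20, and 8.41 and 6.98 outside. The first 100 kb of chromosome 3 had 1.61, 1.70, 2.21 and 1.80, and 5.98 and 4.86 outside.

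The first 2 Mb of chromosome 7 differed less between groups than the 2 Mb stretch of chromosome 1. Its bins held 978 and 1061 CPM in Lenti-GFP and 1120 and 1096 in Lenti-AS, and 952 and 983 in the outside contacts. Both outside values lay below the Lenti-AS libraries and on either side of the lower Lenti-GFP library. The pairs within the stretch had a log2 ratio of 0.20 summed from 50 kb (0.096 without Lenti-GFP replicate 1, 0.31 without Lenti-GFP replicate 2 and 0.029 in the pooled balanced matrices), with observed over expected of 0.139, 0.161, 0.172 and 0.173 in the libraries and 0.142 and 0.143 outside them.

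Its bins with the most cis contacts lay about 0.5 Mb from its start. The bin at 500001 had 4.79 times the cis contacts of the median kept bin, with 23.8 and 27.0 CPM in Lenti-GFP and 30.7 and 29.96 in Lenti-AS, and 20.3 and 23.5 outside. The bin at 530001, at 4.45 times the median, had 22.2, 25.1, 28.3 and 27.9, and 16.1 and 18.9 outside. In trans they had 49.6, 52.9, 55.1 and 55.7, and 44.3, 45.3, 51.1 and 50.2. Each was higher in both Lenti-AS libraries, while the outside contacts in cis were below the Lenti-AS libraries in both groups. The bin at 520001 between them, at 2.31 times the median, had 12.9, 13.5, 13.7 and 12.9 cis CPM, and the groups overlapped.

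Of 127 bins tested by cis contacts 13 were called by edgeR, and of 167 tested by trans contacts 2 were, all of them higher in Lenti-AS. Over the genome 2.46% were called higher by cis contacts and 0.0691% by trans contacts. DESeq2 called 0 here by either, and over the genome 122 of 257633 bins by cis and 56 of 257576 by trans contacts. Fewer were called without Lenti-GFP replicate 1 or either Lenti-AS library, here and over the genome. Without Lenti-GFP replicate 2 more were called here, by cis and by trans contacts. All these fits leave 1 library in a group. Of its 128 bins with at least 200 trans contacts, 52 (40.6%) had both Lenti-AS libraries above both Lenti-GFP libraries, against 23.1% of all such bins. By edgeR 0 of its 47 pairs of 100 kb were called, beside 0.237% over the genome, and 0 by DESeq2, beside 29 of 375849. There was 1 call with the replicate block and 1 with TMM factors in place of the distance term. Calls also appeared without Lenti-GFP replicate 2, a fit that leaves 1 library in that group. An unadjusted edgeR p under 0.05 was found for 10 of the 47 pairs, and for 31542 of the 375849 of the genome.

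The called 10 kb pair of chromosome 7 joined the bins at 450001 and 1590001, 1140 kb apart. This pair was not called with DESeq2, with a mean count of at least 2 or with the cis contacts in the offset. It was also lost when any 1 of the 4 libraries was left out. The filter of a mean count of at least 10 removed the pair before testing, so that setting says nothing about it. It had 2 and 3 contacts in Lenti-GFP and 15 and 15 in Lenti-AS, ratios of 9.68 ± 1.70 and 84.8 ± 3.68 and a fitted log2 fold change of 3.04. Its bins differed little in coverage between the groups, with cis log2 ratios of 0.20 and 0.32, and the ratio per coverage was 30.5 ± 1.45 against 178.1 ± 11.7. The outside contacts were 0 for Lenti-GFP, which allows a ratio of up to 131, and 7 for Lenti-AS, a ratio of 32.1 (12.9 to 66.2). The Lenti-AS libraries, at 82.2 and 87.4, lay above that interval.

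**Figure D5:**
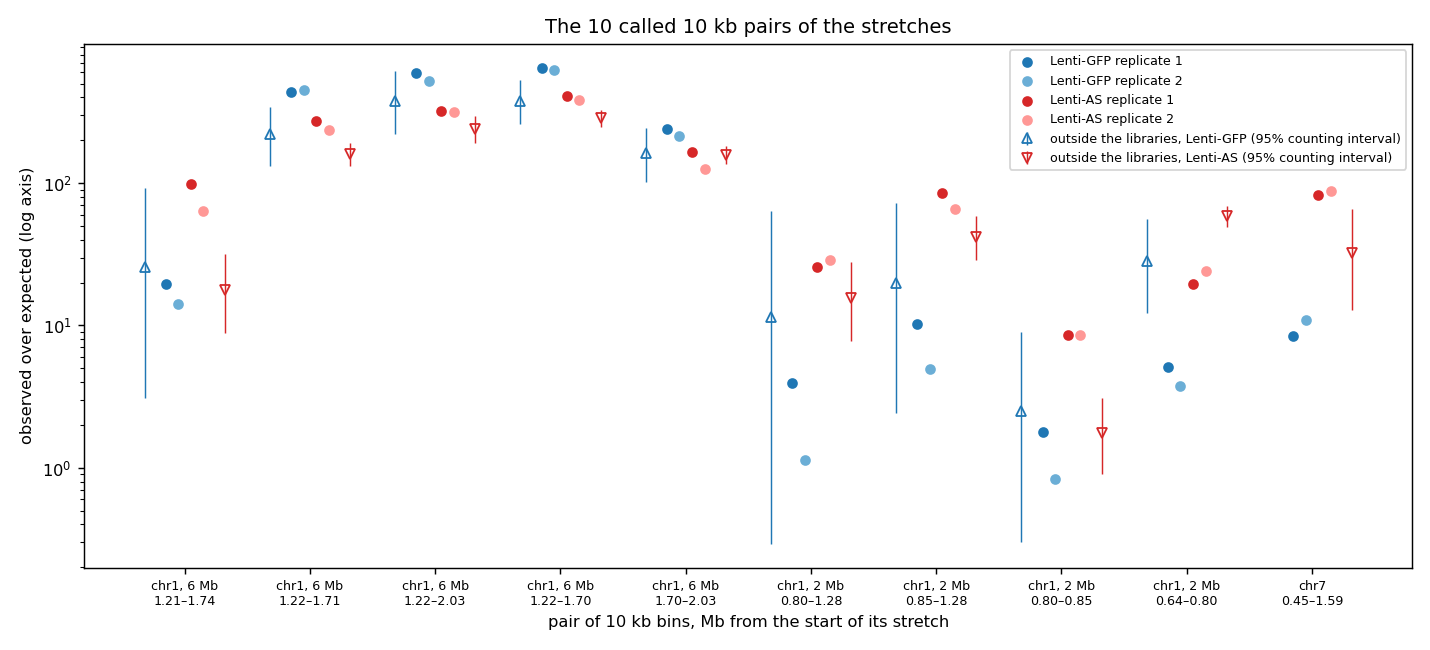
Observed over expected (log axis) of the 10 called pairs of 10 kb bins in the 4 libraries (filled points) and in the outside contacts of each group (open triangles with 95% counting intervals; the Lenti-GFP value of the chromosome 7 pair was 0 and is not drawn). The groups of libraries do not overlap in any pair, which is largely set by the pairs being called for this difference. At the 4 pairs that fell both outside values lie on the low side of the Lenti-GFP libraries.

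Partners of the chromosome 7 stretch were sought in the same way, so nearer windows are not among them. The window 22300001 to 22400000 of chromosome 7 had 28.8 and 31.9 CPM with it in Lenti-GFP, 35.3 and 34.7 in Lenti-AS, and 16.7 and 21.3 in the outside contacts, below all libraries. The window 99200001 to 99300000 had 10.4, 12.5, 15.9 and 14.5, and 15.0 and 13.7 outside. The first 100 kb of chromosome 12 led the trans partners, with 9.11, 11.2, 11.1 and 10.7, and 10.7 and 9.75 outside.

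The stretches also met each other. The 2 Mb stretch of chromosome 1 and the chromosome 7 stretch shared 188 and 204 contacts in Lenti-GFP and 206 and 174 in Lenti-AS, or 1.98, 1.84, 2.75 and 2.47 CPM, and 6.54 and 7.47 CPM in the outside contacts. The 6 Mb stretch and chromosome 7 shared 1.46, 1.43, 1.71 and 1.40 CPM, and 1.12 and 1.48 outside. Both stretches of chromosome 1 shared 0.537, 0.478, 0.575 and 0.525, and 1.78 and 1.48 outside. Contacts with the 2 Mb stretch were the ones that were raised in the outside contacts.

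In the authors' pooled balanced values, which give every bin about the same total and also hold the outside contacts, most called pairs differed less between the groups than in the libraries. The 4 pairs that fell had log2 ratios of Lenti-AS over Lenti-GFP from -0.24 to -0.0097. The pairs of the 2 Mb stretch had 0.49 (180800001 with 181280001), 0.18 (180850001 with 181280001), -0.14 (180800001 with 180850001) and -0.20 (180640001 with 180800001), so the first 2 kept their sign here and lost it after division by the cis contacts. The pair 55210001 with 55740001 had 9.62 and 28.8, and the chromosome 7 pair had 1.10 and 6.23. At the 4 pairs that fell and the 4 of the 2 Mb stretch the cis contacts of both bins differed between the groups in the direction of the pair, and with the cis contacts in the offset none of these 8 was called. The contacts of a pair are themselves part of those cis contacts. The cis contacts of both bins of the chromosome 7 pair were also higher in Lenti-AS, and this pair was not called with that offset either. Its fitted log2 fold change was still 2.51 with the cis contacts in the offset, against 3.04 without them. Whether repeats, assembly errors or copy number had a part in this coverage was not tested.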

How the data were processed

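Hi-C contacts were measured in 2 Lenti-GFP and 2 Lenti-AS libraries. The submitters' processing notes name HiC-Pro and rn6 (Rnor_6.0). The deposited counts are raw contacts per pair of 10 kb bins of each library, and the deposited signal is the value of the matrices that the authors pooled by group and balanced by iterative correction. The members, lists and thresholds were chosen with earlier results of these data known. The contacts analysed ran from 70488877 to 110770015 per library, and the count of a pair limits its precision.

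To undo the balancing, a factor per bin was fitted so that the values became whole; 100% of listed pairs were whole within 0.05, and in each of the 861 (Lenti-GFP) and 863 (Lenti-AS) bins of the stretches checked at least 58.4% of listed pairs held 1 contact. Outside contacts are these counts minus both libraries; the pooled count fell below that sum for 0.221% to 2.82% of pairs in a stretch, which are kept as negative differences. Expected counts came from the 246245 bins with at least 0.25 of the median of 1915 cis contacts. Pairs with a mean count of at least 5 (10 kb) or 10 (100 kb), and bins passing filterByExpr with TMM factors, were tested with edgeR 4.0.16 (quasi-likelihood, Benjamini-Hochberg over all features) in R 4.3.3, tested on simulated data. Named pairs were the 3 largest called changes in each direction per stretch among calls whose groups did not overlap, then all other calls. Named bins were those in most called pairs, the hubs and the 12 with most contacts. Alternatives were DESeq2 1.42.0, other offsets, filters, a replicate block and leaving out each library.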

Additional observations from a re-analysis of the deposited data

Results flagged for a closer look

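Contacts of the pooled matrices beyond both libraries of the same group were above the control libraries in the 2 Mb stretch of chromosome 1. The outside contacts held 1186 CPM (contacts per 1000000) there for Lenti-GFP and 1048 for Lenti-AS, against 315 and 331 in the Lenti-GFP libraries. The bin at 180640001 had 299 outside trans CPM for Lenti-GFP and 220 for Lenti-AS, against 10.4 and 12.5 in the Lenti-GFP libraries. The outside contacts of both groups exceeded those libraries, so the excess was not particular to the pooled Lenti-AS matrix. Their source was not tested.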

How the results depend on the processing

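The count of called 10 kb pairs in the stretches (10) was 2 with DESeq2, 4 with a mean count of at least 2, 5 with the cis contacts of both bins in the offset and 18 with all bins kept, and leaving out 1 library gave 3 to 13. Fits without 1 Lenti-AS library leave 1 library in that group. They lost the rises of the stretches, and those of the whole genome as well, so this loss is not particular to the stretches. For 100 kb pairs (19) it was 5 with DESeq2 and 6 with the cis contacts in the offset, and 12 to 15 without 1 library, 12 without either Lenti-AS library. For bins by cis contacts (76) it was 17 with DESeq2 and 32 to 83 without 1 library, with 32 without Lenti-GFP replicate 1, 43 without Lenti-AS replicate 1 and 36 without Lenti-AS replicate 2. For bins by trans contacts (16) it was 10 with DESeq2 and 6 to 25 without 1 library, with 6 and 10 without Lenti-AS replicates 1 and 2 and 25 without Lenti-GFP replicate 2.

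Both groups carry the numbers 1 and 2, and 2 and 3 in another field of the labels, which do not say what a number marks, and same-numbered deviations correlated at 0.0827 (cis contacts of bins), 0.00158 (trans contacts) and 0.00579 (100 kb pairs). With the replicate number as a block the counts were 9, 21, 88 and 17, within 1.5 times of those above.

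The log2 ratio of observed over expected, summed over the pairs within a stretch from 50 kb (-0.09, 0.70 and 0.20 in the 6 Mb stretch, the 2 Mb stretch and chromosome 7), was turned by the pooled balanced matrices, to 0.016 in the 6 Mb stretch and -0.19 in the 2 Mb stretch, and moved to 0.029 on chromosome 7. Leaving out 1 library gave -0.11 to -0.06, 0.67 to 0.74 and 0.10 to 0.31 in the 3 stretches. With low bins left out, an alternative chosen after seeing the data, it was 2.51 in the 2 Mb stretch, over 15 pairs. These pairs join the 6 kept bins, most of which were kept through their Lenti-AS contacts. That value is therefore partly set by the choice of bins.

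Of the named pairs, the fit with the cis contacts of both bins in the offset turned 55220001 with 55700001 (fitted log2 fold change 0.042), 55700001 with 56030001 (0.15), 180800001 with 181280001 (-0.28), 180850001 with 181280001 (-0.76), 180800001 with 180850001 (-1.11) and 180640001 with 180800001 (-1.57). The pooled balanced matrices turned the last 2 (-0.14 and -0.20). Low counts limit the pairs of the 2 Mb stretch and of chromosome 7 and the outside contacts of Lenti-GFP. The cause of these shifts was not tested beyond the scaling itself.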
